A study of Mus musculus with 33 samples.

Results

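The replication-dependent histone genes were taken as the protein-coding genes of the mm9 GENCODE annotation whose names start with Hist1h, Hist2h, Hist3h or Hist4h. There were 67 such genes among 22367 protein-coding genes. They comprised 6 genes for the linker histone H1, 19 for H2A, 18 for H2B, 11 for H3 and 13 for H4. Hist1h1t, Hist1h2ba and Hist1h2aa code for variants of the testis and are described apart.

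Replication-dependent histone genes supply the histones that package newly copied DNA, and they are transcribed at high rates in S phase. Most lack introns, and their mRNAs end in a conserved stem-loop in place of a poly(A) tail. They lie in a few dense clusters that gather at a nuclear structure called the histone locus body, where the factor Npat drives their transcription. Pluripotent stem cells cycle rapidly and spend a large share of the cycle in S phase, so these genes are heavily used there.

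The study asked how loss of Uhrf1, a protein that binds histone and DNA marks at replication, alters histone marks and pluripotency factor binding in mouse embryonic stem cells (mESCs). ChIP-seq, the sequencing of DNA pulled down with an antibody, was run on wild type (WT) and Uhrf1 knockout (KO) E14 mESCs, kept undifferentiated in medium with serum and leukemia inhibitory factor. H3K4me3, found at active promoters, and H3K27me3, the mark of Polycomb repression, were also measured in embryoid bodies (EBs), in which the cells of both genotypes had differentiated for 1, 2 or 3 weeks. H3K9me3, a mark of heterochromatin, and the pluripotency factors Oct4, Sox2 and Nanog were measured in mESCs of both genotypes, and Uhrf1 in WT mESCs. The E14 and Uhrf1 KO cells came from another group as established lines, and plates were coated with gelatin or mouse embryonic fibroblasts. There were 33 samples, of which 25 had a deposited list and 8 were inputs. With a single library for each genotype, stage and target there is no replicate error, and no test between genotypes or stages is given.

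The lists differed widely in size, and this bears on every count below. H3K4me3 lists held 11509 to 39898 domains. The KO mESC H3K27me3 list was the shortest of its mark, with 722 domains against 8161 in WT, and the KO Oct4 list held 576 summits against 12898 in WT. The Sox2 lists ran the other way, with 5190 summits in WT and 20755 in KO. The lists hold no read totals, and depth was not taken into account here. The Uhrf1 gene itself had H3K4me3 in all 8 lists, which does not check its deletion. Of 8 pluripotency markers, 7 had H3K4me3 in mESCs of each genotype, Esrrb being the exception. In WT EBs 5, 7 and 7 of the 8 had it at weeks 1, 2 and 3, and in KO EBs 2, 7 and 7, so H3K4me3 at these genes does not check the state of the cells. Of 9 markers of differentiated lineages, 4 in WT and 2 in KO had it in mESCs, and 6 in each genotype had it at week 3. All 4 fibroblast markers, Col1a1, Col1a2, Thy1 and Twist2, had both H3K4me3 and H3K27me3 in WT mESCs, and 3 of them had H3K4me3 in KO mESCs.

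The histone genes fell into 8 groups when genes at most 100 kb apart were joined. On chromosome 13 the Hist1 genes formed block A (chr13:21807632-21929399, 18 genes), block B (chr13:22126982-22135545, 5 genes) and block C (chr13:23622919-23856283, 29 genes). The testis pair Hist1h2ba and Hist1h2aa lay alone at chr13:24025637-24026720, and Hist1h2al, an H2A gene, lay far away at chr13:51298057-51298434. The Hist2 cluster (chr3:96023839-96082924) held 9 genes, and the Hist3 cluster (chr11:58762413-58770176) held Hist3h2ba and Hist3h2a, for an H2B and an H2A. Hist4h4, an H4 gene, lay alone at chr6:136752589-136752900. Many of the genes share a promoter region: 12 pairs of an H2A and an H2B gene pointed away from each other with starts 168 to 306 bp apart. The 67 starts thus made 52 groups within 1 kb, and neighbouring genes are not independent observations.

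Sequence at the ends and starts of the genes was read from the mm9 assembly to see what the members share beyond their names. Within 150 bases after the stop codon, 61 of 67 genes had a perfect stem of 6 base pairs starting with GG around a loop of 4 bases starting with TT. The same pattern was found after 12 of 21853 stop-annotated other genes (0.0549%). Among 10 replication-independent histone genes only H2afx, which codes for H2A.X, had it. The loops are shown because they are the feature by which these mRNAs are recognised, with the stem in capitals and the DNA strand of the mRNA.

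Stem-loop of 39 genes: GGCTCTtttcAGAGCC

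Stem-loop of 9 genes: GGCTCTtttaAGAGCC

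Stem-loop of 8 genes: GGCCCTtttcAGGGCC

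Stem-loop of Hist1h4i and Hist2h4: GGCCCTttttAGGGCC

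Stem-loop of Hist1h4j and Hist1h4b: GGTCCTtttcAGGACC

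Stem-loop of Hist2h2ac: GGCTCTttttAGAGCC

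The loop began 22 to 59 bases after the stop codon, with a median of 31. No perfect match was found after Hist1h2an, Hist1h3g, Hist1h4a, Hist1h2al, Hist2h2be and Hist2h2bb, which says only that these exact letters were not in the window. The testis variants all had the loop.

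Promoters were searched from 250 bases before to 50 after the gene start, on both strands, for TATAAA (the TATA box), CCAAT (the CCAAT box) and ATTTGCAT (the octamer bound by Oct1, Oct4 and other POU factors). No motif contains another. TATAAA was found in 38 of 67 histone promoters (56.7%) and in 13.4% of all 22367 promoters. CCAAT was found in 57 (85.1%), against 37.9% of all promoters, and it was in every H1, H2A and H2B promoter, in 10 of 11 H3 promoters and in 4 of 13 H4 promoters. ATTTGCAT was found in 15 (22.4%), against 1.73% of all promoters. These 15 were 8 of 18 H2B and 7 of 19 H2A promoters, and none of the H1, H3 or H4 promoters. The annotated start was the first coding base in 9 genes and lay within 200 bp of it in 64, so distances from the start are close to distances from the coding sequence.

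A few promoters carry the comparisons that follow and are printed with matches to any of the 3 motifs in capitals. The shared promoter of Hist1h2bl and Hist1h2ai is shown because the tallest Oct4 summit of any H2A and H2B pair lay beside it (mm9 chr13:21808012-21808281, + strand).

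Hist1h2bl to Hist1h2ai: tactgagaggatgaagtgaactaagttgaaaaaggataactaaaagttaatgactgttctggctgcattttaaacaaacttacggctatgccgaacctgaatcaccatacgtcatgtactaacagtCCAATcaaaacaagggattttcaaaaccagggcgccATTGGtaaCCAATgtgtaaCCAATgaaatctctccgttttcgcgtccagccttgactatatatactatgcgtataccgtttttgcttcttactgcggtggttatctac

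The 250 bases before the testis gene Hist1h2ba (chr13:24026026-24026275, - strand) are shown as a promoter that has the octamer, CCAAT boxes and a TATA box and yet had neither H3K4me3 in WT nor any factor summit.

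Hist1h2ba: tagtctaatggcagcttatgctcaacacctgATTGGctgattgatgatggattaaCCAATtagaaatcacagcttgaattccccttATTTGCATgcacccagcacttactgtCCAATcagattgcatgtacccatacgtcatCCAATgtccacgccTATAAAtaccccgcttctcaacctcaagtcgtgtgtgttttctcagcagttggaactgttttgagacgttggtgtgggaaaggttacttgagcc

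The 250 bases before Hist3h2ba (chr11:58762163-58762412, + strand) are shown as the promoter with an H3K27me3 domain within 5 kb in every list of both genotypes. In KO mESCs that domain ended at chr11:58761000, before the printed bases.

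Hist3h2ba: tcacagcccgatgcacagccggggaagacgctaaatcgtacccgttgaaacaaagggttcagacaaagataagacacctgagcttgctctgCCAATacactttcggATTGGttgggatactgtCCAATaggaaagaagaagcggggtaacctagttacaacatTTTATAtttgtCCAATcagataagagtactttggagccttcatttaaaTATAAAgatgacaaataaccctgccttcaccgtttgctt

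An inverted duplication inside block A limits what the reads can tell. The stretches chr13:21893068-21904068 and chr13:21923612-21934612 matched over 11001 bp with 5 mismatches (99.95% identity) when 1 was read on the opposite strand. The first copy holds Hist1h2bq, Hist1h2ao and Hist1h4m, and the second holds Hist1h4n, Hist1h2ap and Hist1h2br. The promoters between the H2A and H2B genes had 0 mismatches, so a single sequence stands for both (chr13:21902068-21902236 on the + strand and chr13:21925444-21925612 on the - strand).

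Both copies: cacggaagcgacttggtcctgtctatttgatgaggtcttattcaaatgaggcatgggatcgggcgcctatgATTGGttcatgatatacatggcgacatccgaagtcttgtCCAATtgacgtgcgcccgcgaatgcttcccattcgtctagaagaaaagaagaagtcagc

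Reads from these copies cannot be told apart, and the authors kept 1 alignment per read. Within 2 kb of their starts, 79.6% to 99.0% of the 50-base words of these 6 genes occurred elsewhere in the genome, and they are called repeated below. The other 61 genes were under 50%, but the share reached 48.6% at Hist2h2aa2 and 39.4% at Hist1h3f. Shared words are thus not confined to the 6 genes, and leaving these out does not remove all of them. Where in the window the shared words lie was not counted.

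**Figure D1:**
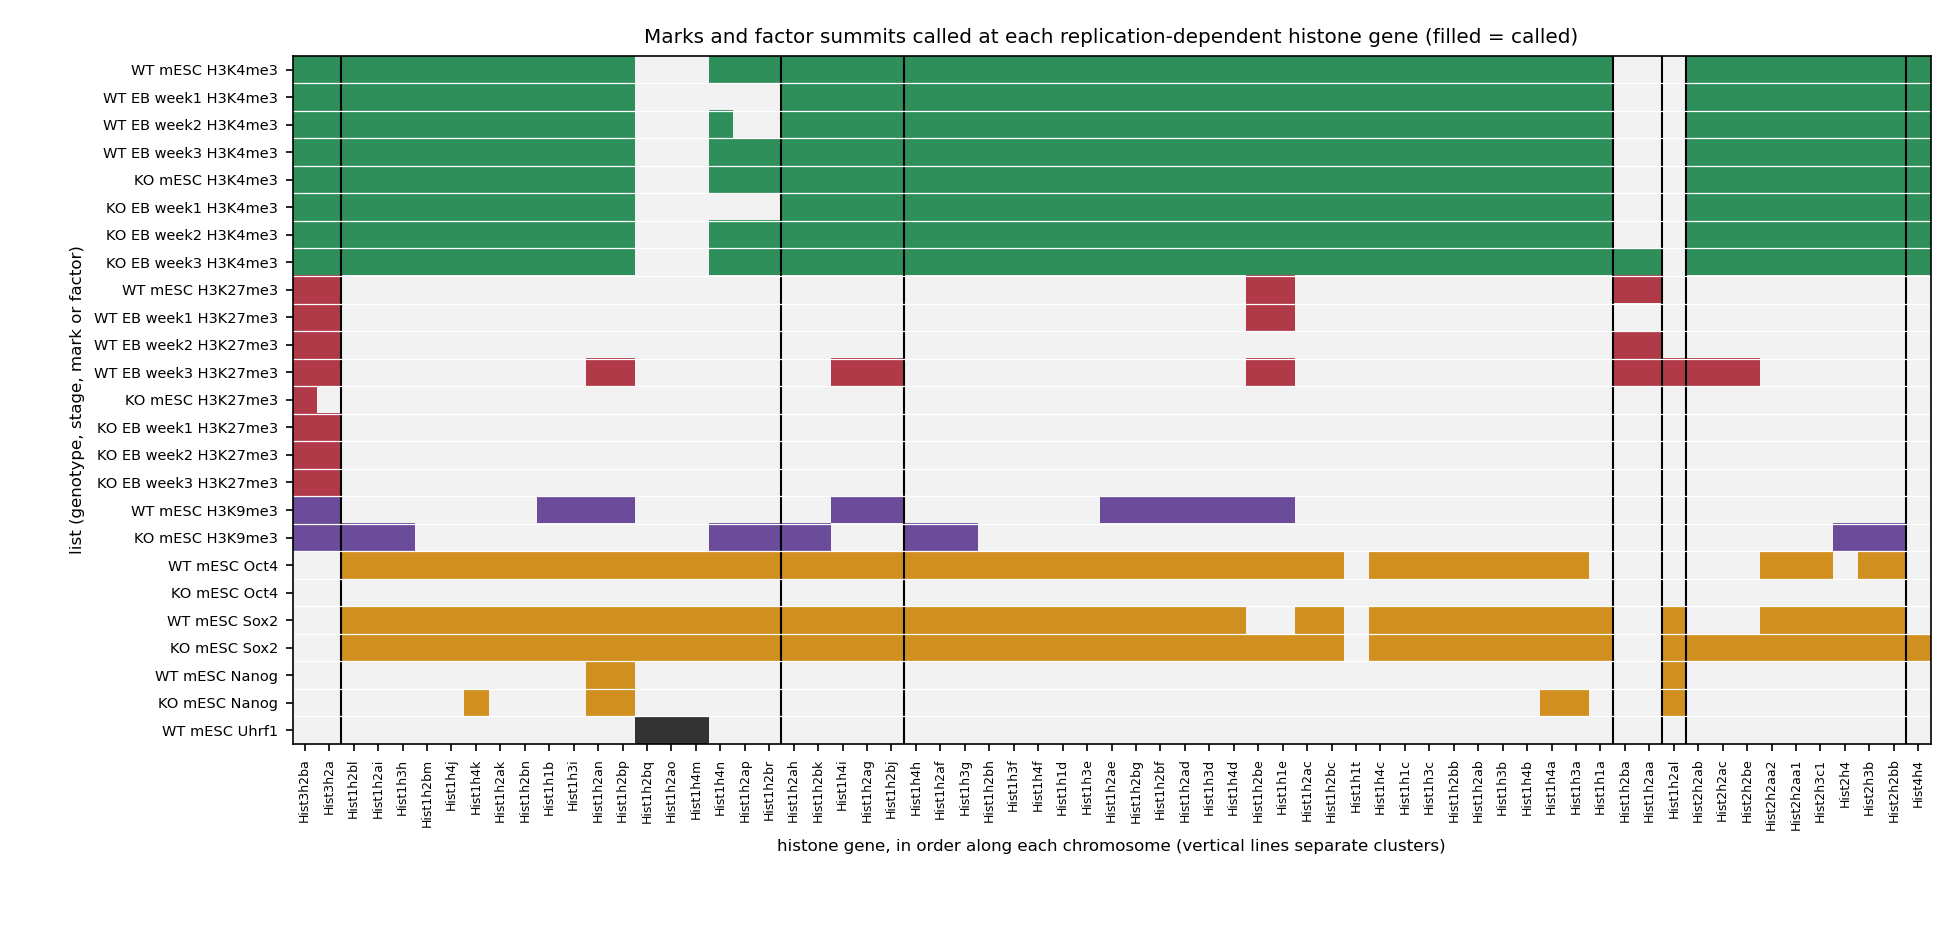
Calls at each of the 67 histone genes (columns, in genome order, with lines between clusters) in each of the 25 lists (rows). Green marks H3K4me3 within 2 kb of the start, red H3K27me3 and purple H3K9me3 within 5 kb, orange a factor summit within 2 kb and black a Uhrf1 window within 5 kb. H3K4me3 filled 58 columns in all 8 lists, while Oct4 filled 55 columns in WT and 0 in KO.

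To compare active marking of the histone genes between the lists of each genotype, promoters with an H3K4me3 domain within 2 kb of the start were counted. H3K4me3 was kept at every histone gene that had it in WT. In mESCs 61 of 67 genes were marked in WT (91.0%, 95% Wilson interval 81.8 to 95.8), against 63.2% of all promoters. In KO mESCs the same number, 61, was marked, against 57.0% of all promoters. In WT EBs 58, 59 and 61 genes were marked at weeks 1, 2 and 3, where 62.1%, 65.7% and 66.2% of all promoters were. In KO EBs 58, 61 and 63 were marked, where 57.0%, 64.5% and 65.8% of all promoters were. These marks came from 10 to 21 distinct domains per list, so the intervals, which treat genes as independent and cover counting error only, are too narrow.

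No histone gene lost H3K4me3 from WT to KO at any stage. Among all WT-marked promoters, whatever their H3K4me3 level, 12.0% lost it in mESCs, 10% at week 1, 5.33% at week 2 and 3.73% at week 3. No histone gene gained it in mESCs or at week 1, when 3.75% and 3.10% of unmarked promoters did. At week 2 the repeated genes Hist1h2ap and Hist1h2br gained it (6.61% of unmarked promoters did), and at week 3 the testis pair did (6.05%). The same 58 genes were marked in all 4 WT lists and in all 4 KO lists, where 57.2% of all promoters were marked throughout in WT and 51.0% in KO. From mESC to week 3 no histone gene became marked in WT, where 15.7% of unmarked promoters did, and the testis pair did in KO, where 24.3% did.

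**Figure D2:**
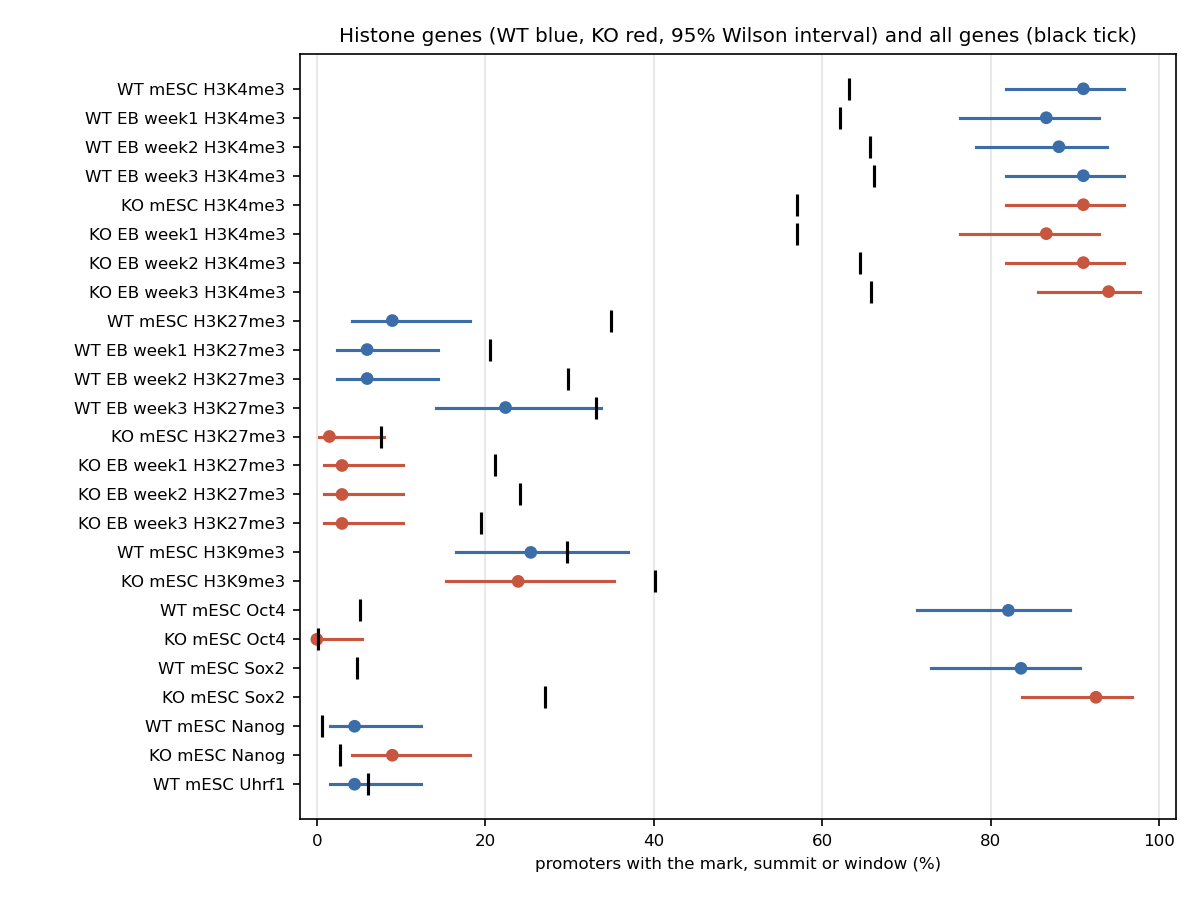
Percent of the 67 histone genes with each mark, summit or window (points, blue for WT and red for KO, with 95% Wilson intervals as lines) and percent of all 22367 protein-coding genes (black ticks). H3K4me3, Oct4 in WT and Sox2 lie to the right of the ticks, and the intervals of all H3K27me3 lists except WT week 3 and KO mESC lie to the left.

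The genes without H3K4me3 were few and fell into 3 kinds. Hist1h2bq, Hist1h2ao and Hist1h4m, the first copy of the duplication, had no domain in any of the 8 lists. The second copy, Hist1h4n, Hist1h2ap and Hist1h2br, was marked in mESCs and at week 3 of both genotypes and at week 2 of KO, while at week 2 of WT only Hist1h4n was marked and at week 1 none was. Since the copies are alike in sequence, this difference between them cannot be read as a difference between the genes. The last kind was the testis pair, unmarked in WT at every stage, and Hist1h2al, unmarked in every list.

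The level of H3K4me3 was read as the rank of a gene's domain, by mean read count per bin, among all domains of the same list, because bin size and scaling differed between lists. In WT mESCs the marked histone genes had a median percentile of 79.9, with a range of 37.0 to 99.1, and all marked genes had 58.6. In KO mESCs the medians were 59.2 for histone genes and 52.6 for all marked genes. In EBs the histone medians in WT were 84.3, 95.1 and 91.5 at weeks 1, 2 and 3, against 64.5, 80.3 and 72.9 for all marked genes. In KO EBs they were 86.5, 93.2 and 94.7, against 65.2, 73.7 and 71.9. The histone genes thus ranked above the median marked gene in all 8 lists, by the smallest margin in KO mESCs.

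**Figure D3:**
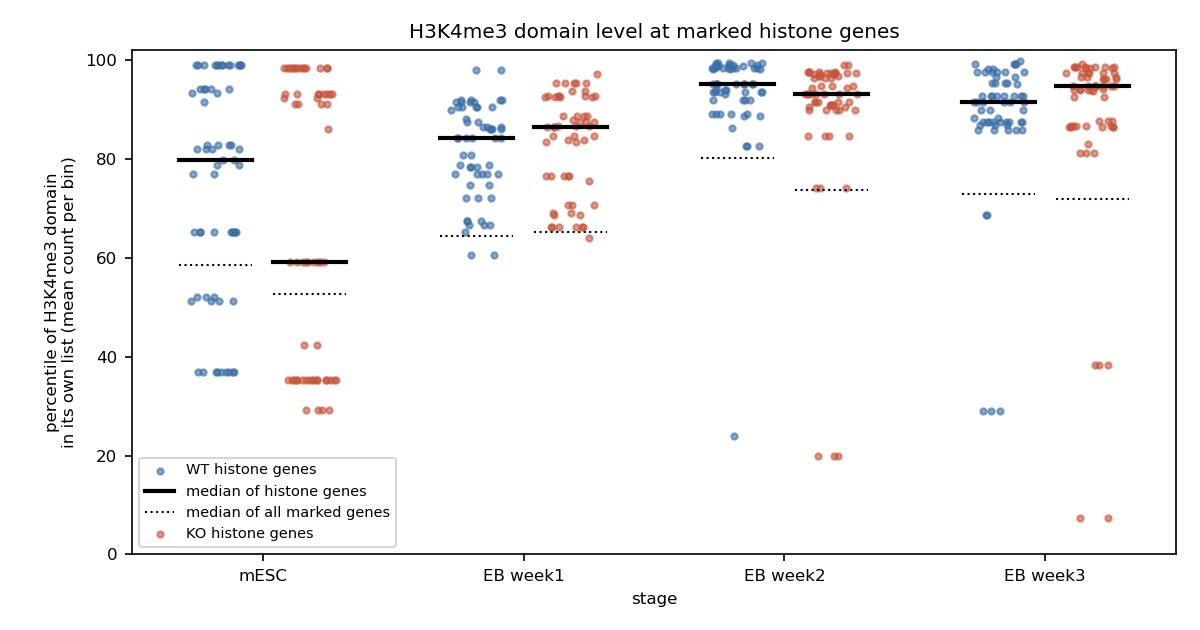
Percentile of each marked histone gene's H3K4me3 domain among the domains of its own list (vertical axis) at each stage, with WT in blue and KO in red. Solid bars are medians of the histone genes and dotted bars medians of all marked genes. The solid bar falls from 79.9 in WT mESCs to 59.2 in KO mESCs and lies between 84.3 and 95.1 at all EB stages. Genes in the same domain share a value, and the KO mESC bar is at the value of the domain over the Hist2 genes.

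From WT to KO mESCs the domain was lower in rank and longer at 42 of the 61 marked genes, lower and shorter at 9, and lower with equal length at 1. It was higher in rank and shorter at 6 genes and higher and longer at 3. Genes in the same domain share its rank and length. The domains numbered 13 in WT and 10 in KO, so these counts are not of independent changes. Some changes in rank were small: the domain over Hist1h4h and its neighbours in block C went from the 99.1 percentile (234 kb) to the 98.5 percentile (250 kb). The median domain over a marked histone gene was 44.2 kb long in WT mESCs and 126 kb in KO mESCs, while the median over all marked genes was 16.9 kb in each. For Hist1h2an and Hist1h2bp, an H2A and H2B pair of block A, the domain was 19.5 kb at the 82.8 percentile in WT mESCs (chr13:21868601-21888100) and 62.4 kb at the 35.3 percentile in KO (chr13:21825701-21888100). Hist1h2bl and Hist1h2ai, whose promoter is printed above, went the other way, from 24.7 kb at the 82.1 percentile to 16.9 kb at the 91.1 percentile. All 9 Hist2 genes lay in a domain that was both shorter and lower in KO, from 190 kb at the 65.3 percentile to 126 kb at the 59.2 percentile. The repeated genes Hist1h4n, Hist1h2ap and Hist1h2br lay in a domain that was both longer and higher, from 44.2 kb at the 52.1 percentile to 233 kb at the 93.1 percentile. This KO domain also covered block B, whose own WT domain was 89.7 kb long at the 94.2 percentile. The higher rank is that of the joined domain and cannot be read as a gain over the repeated genes. The part of domain length in these ranks was not tested.

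Over whole clusters, H3K4me3 covered more of blocks A and C in KO mESCs than in WT mESCs. With 5 kb added on each side, block C was covered by H3K4me3 for 44.0% of its 243 kb in WT mESCs and 58.9% in KO. Block A went from 55.6% to 74.3% of 132 kb. The Hist2 cluster was covered for 100% and 98.5%, and block B for 100% in each. In EBs the KO cover of block C was lower than that of WT, with 36.1%, 40.4% and 38.8% in KO at weeks 1, 2 and 3 and 41.0%, 53.1% and 45.4% in WT. The Hist2 cluster and Hist4h4 were also lower in KO at each week. Block A was lower only at week 1, with 26.8%, 46.6% and 45.1% in KO and 37.5%, 45.7% and 44.8% in WT. At week 3 block B was covered for 100% in KO and 84.1% in WT, and the Hist3 cluster for 100% and 83.2%. The genome as a whole was covered for 8.14% in WT mESCs and 7.10% in KO. In EBs it was covered for 4.03%, 7.75% and 6.10% in WT and 2.76%, 5.82% and 6.24% in KO, so the lower KO cover of block C at weeks 1 and 2 went with a lower cover of the whole genome.

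**Figure D4:**
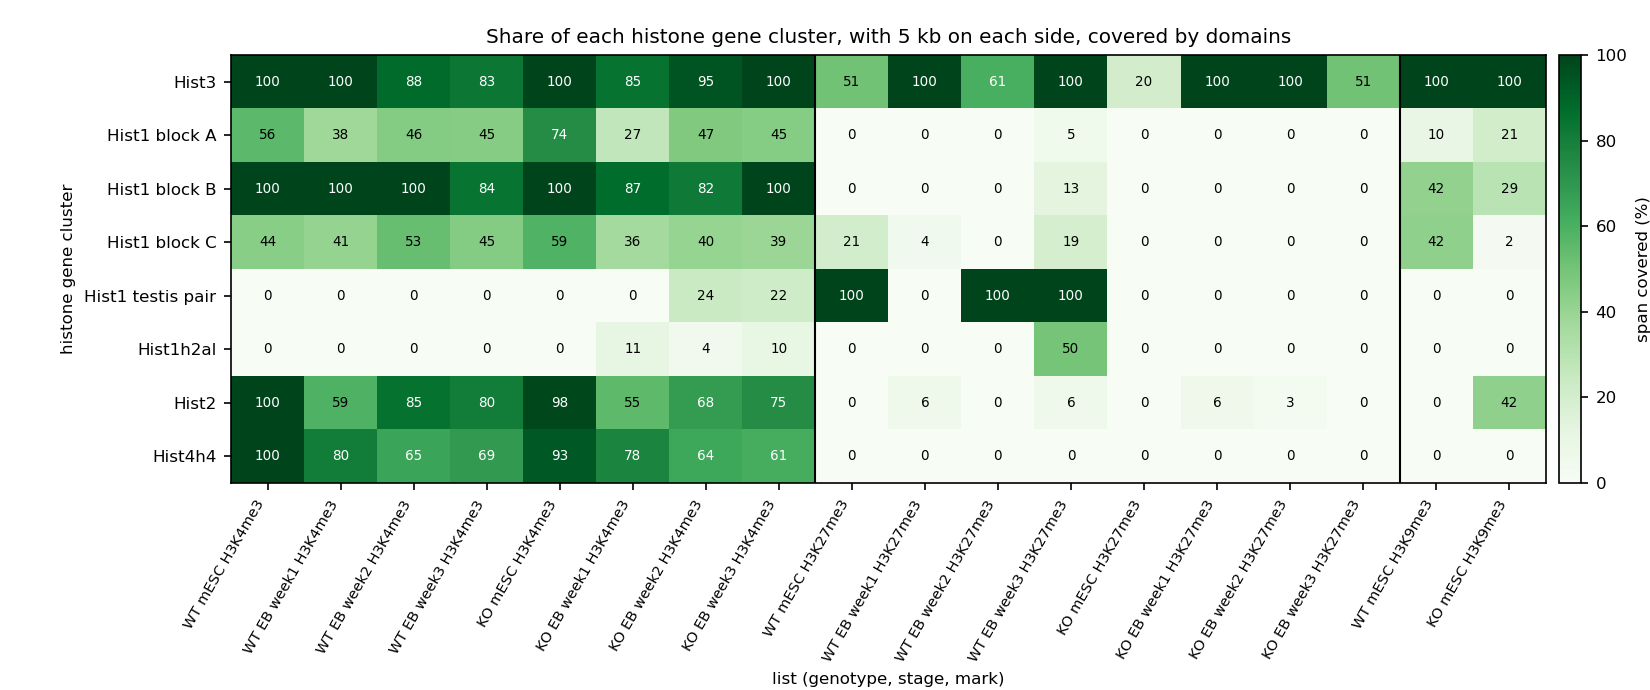
Percent of each histone gene cluster, with 5 kb on each side, that lies in a domain (colour and number, rounded) for each genotype, stage and mark. The testis pair was covered by H3K27me3 for 100% in 3 of 4 WT lists and 0% in all 4 KO lists, and H3K9me3 covered 42.2% of block C in WT and 2.17% in KO.

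H3K27me3 was rare at the histone genes. Domains within 5 kb of the start were counted at 6 genes in WT mESCs, where 34.9% of all promoters had one, and at 4, 4 and 15 genes in WT EBs at weeks 1, 2 and 3, where 20.5%, 29.8% and 33.2% did. In KO the counts were 1 gene in mESCs and 2 at each EB week, against 7.57%, 21.1%, 24.1% and 19.5% of all promoters. For the 15 genes of WT week 3 (22.4%, interval 14.1 to 33.7) the interval held the share of all promoters, and the domains numbered 7.

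Many of these calls were domain edges. The gene start itself lay inside an H3K27me3 domain at 3 histone genes in WT mESCs, 2 at week 1, 4 at week 2 and 4 at week 3, and these were always of the Hist3 cluster or the testis pair. Hist1h1e, for a linker histone, lay 630 bp from a 50.4-kb domain in WT mESCs, and 1630 bp and 2430 bp from the nearest domain in WT at weeks 1 and 3. Hist1h2be has its outermost annotated start beside Hist1h1e, 35168 bp from its coding start, so its calls come from the same domains as those of Hist1h1e. Hist1h4i, at week 3, had 0.210% of its 10-kb window in a domain.

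From WT to KO, H3K27me3 calls were lost at 5 of 6 genes in mESCs, 2 of 4 at week 1, 2 of 4 at week 2 and 13 of 15 at week 3. Over all promoters 84.5%, 27.7%, 51.2% and 50.1% of calls were lost. None of the histone genes gained a call, where 3.34%, 7.91%, 13.6% and 4.32% of unmarked promoters did. The mESC loss is close to the loss over all promoters and goes with a KO list of 722 domains. The 5 genes that lost it in mESCs were Hist3h2a, Hist1h2be, Hist1h1e and the testis pair.

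The Hist3 genes were the only histone genes with an H3K27me3 call in any KO list. Hist3h2ba had H3K27me3 in all 8 lists and H3K4me3 in all 8. Its H3K27me3 domain reached the 85.8, 89.7, 92.7 and 82.8 percentile in WT from mESC to week 3, and the 96.1, 75.5, 55.2 and 52.8 percentile in KO. In KO mESCs the domain ended short of the gene start and covered 35.9% of the window, against 89.9% in WT. Hist3h2a was marked in the same lists but for KO mESCs, and its start is also the annotated start of Trim17, a neighbouring gene. Across stages, H3K27me3 was present throughout at these 2 genes in WT and at Hist3h2ba alone in KO, where 10.2% and 3.47% of all promoters were marked throughout. By week 3, 9 histone genes without H3K27me3 in mESCs had a call in WT, where 13.4% of unmarked promoters did, and 1, Hist3h2a, in KO, where 16.4% did.

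Combining the marks, a promoter was called active with H3K4me3 alone, bivalent with both, repressive with H3K27me3 alone and without mark otherwise. In mESCs all 57 histone genes active in WT were active in KO, where 89.9% of all active promoters were. At weeks 1, 2 and 3 all 54, 57 and 49 active histone genes stayed active, where 89.3%, 86.3% and 94.3% of all active promoters did. In mESCs 3 of 4 bivalent histone genes, Hist3h2a, Hist1h2be and Hist1h1e, became active and Hist3h2ba stayed bivalent, where 60.5% of all bivalent promoters became active. The testis pair went from repressive to no mark, where 87.1% of all repressive promoters did. At week 3, 10 of 12 genes went from bivalent to active: Hist1h2an, Hist1h2bp, Hist1h4i, Hist1h2ag, Hist1h2bj, Hist1h2be, Hist1h1e, Hist2h2ab, Hist2h2ac and Hist2h2be. Over all bivalent promoters 46.8% did. The testis pair went from repressive to active, where 2.39% of all repressive promoters did. With 2 kb for both marks, the count of genes that changed class at week 3 fell from 13 to 5.

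The testis variants differed from one another. Hist1h2ba and Hist1h2aa, an H2B and an H2A variant of male germ cells, lay wholly inside H3K27me3 domains in WT mESCs (184 kb long), at week 2 (223 kb) and at week 3 (207 kb), with no call at week 1. These domains ranked at the 19.2, 46.6 and 54.2 percentile of their lists. No KO list had a domain within 5 kb of the pair. The H3K27me3 lists covered 36.1%, 3.81%, 43.9% and 29.8% of the genome in WT from mESC to week 3. In KO they covered 3.17%, 6.78%, 17.6% and 15.8%. The pair thus had domains only in the broadest lists of the mark, and the part of list breadth was not tested. Their H3K4me3 call in KO at week 3 came from a single 2.40-kb domain (chr13:24022001-24024400) at the 7.27 percentile that ended 1625 bp from the start of Hist1h2ba and 1931 bp from that of Hist1h2aa. It covered 9.40% and 1.75% of their windows. In KO at week 2 the nearest domain lay 2725 bp from Hist1h2ba and was not counted.

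Hist1h1t, the linker variant of spermatocytes, lies inside block C, and it had H3K4me3 within 2 kb in all 8 lists. Its start lay inside the domain in 5 of them and 721 to 771 bp away at WT week 2 and at KO weeks 1 and 2. It had no H3K27me3 call and no factor summit in any list. In WT mESCs the domain was 2.60 kb long (chr13:23787401-23790000), and the same domain was the nearest to Hist1h4c, an H4 gene. In mESCs, then, marking of Hist1h1t and of Hist1h4c cannot be told apart.

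H3K9me3 was at 17 histone genes in WT mESCs, where 29.7% of all promoters had a domain within 5 kb, and at 16 in KO, where 40.1% did. Hist3h2ba and Hist3h2a were the only genes marked in both. The other 15 WT genes were lost in KO, where 25.1% of WT-marked promoters were lost, and 14 were gained, where 25.4% of unmarked promoters were gained. The WT calls came from 4 domains and the KO calls from 5, so these counts rest on few regions.

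The change was of whole stretches of a cluster. In block C a 103-kb WT domain (chr13:23664601-23767200) reached 8 genes from Hist1h2ae to Hist1h1e, and in KO only Hist1h4h, Hist1h2af and Hist1h3g at the other end were reached, by the edge of a 392-kb domain. The cover of block C by H3K9me3 was 42.2% in WT and 2.17% in KO. In the Hist2 cluster it was 0% in WT and 42.2% in KO, where a 110-kb domain took in Hist2h4, Hist2h3b and Hist2h2bb. In block A a 12.6-kb WT domain over Hist1h1b, Hist1h3i, Hist1h2an and Hist1h2bp gave way in KO to domains at both ends of the block, at Hist1h2bl, Hist1h2ai and Hist1h3h and at the repeated genes Hist1h4n, Hist1h2ap and Hist1h2br. The latter domain, 214 kb long, also reached Hist1h2ah and Hist1h2bk of block B.

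In WT most of these genes lay in domains of low rank. The WT domain of block C had a mean count at the 3.02 percentile of its list, and the median over marked histone genes was 7.94 in WT and 50.8 in KO, against 57.4 and 57.9 over all marked genes. By the score, a column apart from the mean count, 11 histone genes in WT and 13 in KO had a domain of at least the median. At the Hist3 genes the WT domain was 28.8 kb long and the KO domain 9916 kb. All 17 WT genes and 13 of 16 KO genes were outside the repeated set.

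Oct4 and Sox2 summits lay at most of the histone genes. A summit is the position within a peak where most reads pile up, and its height is that number of reads. In WT mESCs 55 of 67 histone genes had an Oct4 summit within 2 kb of the start (82.1%, interval 71.3 to 89.4), where 5.15% of all promoters did. For Sox2 it was 56 genes (83.6%, interval 72.9 to 90.6), where 4.82% of all promoters did. In 53 genes both were found. Every H3 gene, 11 of 11, had both, and so did all 18 genes of block A and all 5 of block B. No Oct4 or Sox2 summit was found at the Hist3 genes, the testis variants, Hist2h2ab, Hist2h2ac, Hist2h2be or Hist4h4 in WT.

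Active promoters as a class did not have summits this often. Of 14130 genes with H3K4me3 in WT mESCs, 7.21% had an Oct4 summit and 7.14% a Sox2 summit, against 52 of 61 marked histone genes for each. In the tenth of marked genes with the highest H3K4me3 mean count, 10.3% had Oct4 and 8.78% Sox2, against 21 and 19 of the 22 histone genes among them. Of the 10 replication-independent histone genes, H2afx alone had an Oct4 summit and 4 had Sox2 in WT. None of 13 genes for histone mRNA factors, such as Npat and the stem-loop binding protein Slbp, had either in WT.

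Most of the summits lay inside the genes, downstream of the start. The 51 Oct4 summits at histone genes had a median position 195 bp downstream of the nearest start, and 49 of them (96.1%) were downstream. Of 1113 Oct4 summits within 2 kb of other genes, 43.1% were downstream and the median was at -65.0 bp, upstream. Between the start and 500 bp downstream lay 82.4% of the summits at histone genes and 14.9% at other genes. The 40 WT Sox2 summits were alike, with a median of 164 bp downstream and 85.0% in the first 500 bp, against 29.5% at other genes. Of the 51 Oct4 summits, 45 lay inside the annotated gene. At H2A and H2B pairs that point away from each other, a summit outside the short shared promoter is always downstream of the nearer start. The part of this arrangement in the contrast with other genes was not tested. The inputs over these genes were not used here, and the share of repeated sequence under the summits was not counted.

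**Figure D5:**
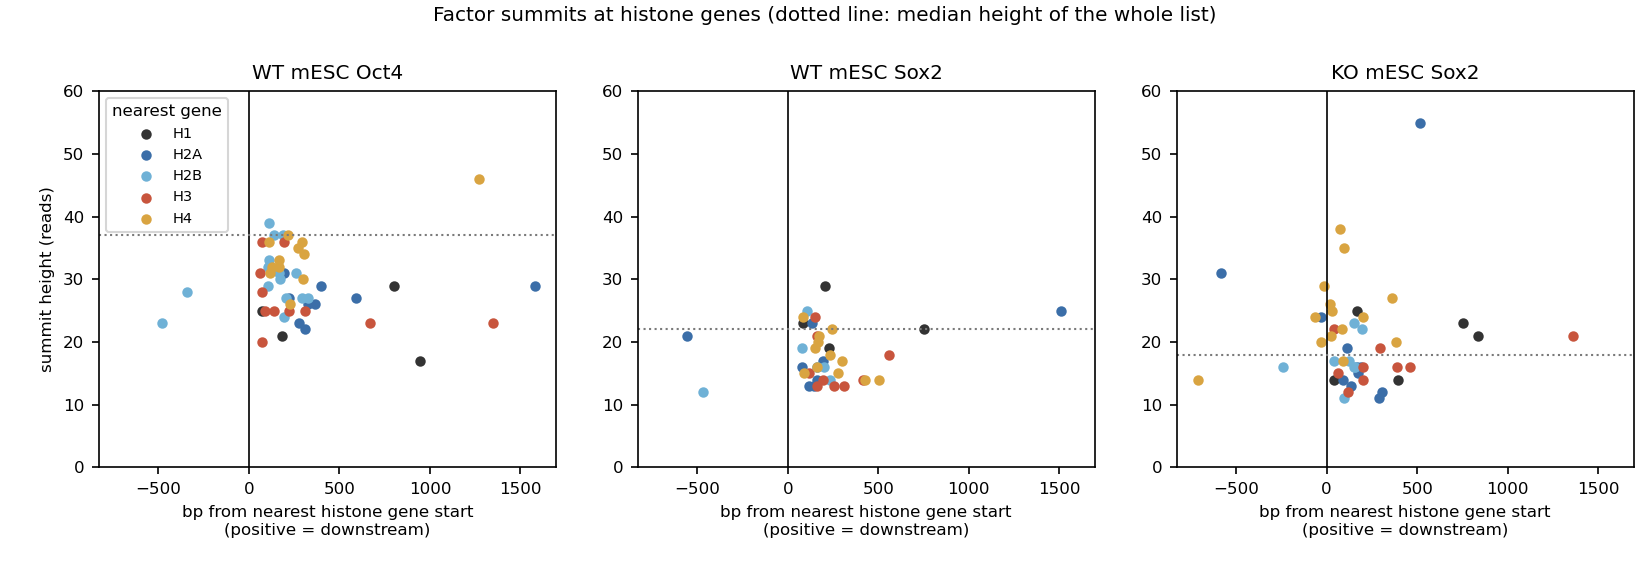
Height in reads (vertical axis) and distance from the nearest histone gene start (horizontal axis, positive downstream) of each summit of WT Oct4, WT Sox2 and KO Sox2 at the histone genes, coloured by histone type. Most points lie between 0 and 500 bp downstream, and the WT points lie mainly below the dotted line, the median height of all summits in the list.

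Their heights were modest. Oct4 summits at histone genes were 17 to 46 reads high with a median of 29, where the median of all 12898 summits was 37. WT Sox2 summits were 12 to 29 reads high with a median of 16.5, where the list had 22. The tallest Oct4 summit, 46 reads at chr13:23674739, lay 1272 bp downstream of the H4 gene Hist1h4d. The next, 39 reads at chr13:21807900, lay 112 bp into Hist1h2bl, and the tallest WT Sox2 summit, 29 reads, lay 206 bp into the linker gene Hist1h1d. With summits of at least the median height of their list, 10 histone genes had Oct4 and 14 had Sox2.

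The exact letters of the octamer were not under the summits. Only these letters were searched, and most Oct4 summits of the whole list lacked them too. Within 100 bp of the summit, 0 of 51 Oct4 summits at histone genes held ATTTGCAT, where 10.2% of the 12697 Oct4 summits searched did. For WT Sox2 it was 0 of 40, where 5.92% of 5134 did, and for KO Sox2 0 of 47, where 4.81% of 20675 did. Of the 15 genes with an octamer in the promoter 10 had an Oct4 summit, and of the 52 without it 45 did. The sequence 50 bases either side of the Oct4 summit in Hist1h2bl (chr13:21807850-21807950, - strand) is shown as an example of these summits. It lies in the H2B coding sequence and has no match to the 3 motifs.

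Oct4 summit in Hist1h2bl: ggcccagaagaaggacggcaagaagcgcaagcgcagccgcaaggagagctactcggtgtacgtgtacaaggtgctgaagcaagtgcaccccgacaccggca

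In KO mESCs the factors went different ways. Oct4 had a summit at 0 of 67 histone genes (upper 95% limit 5.42%), where 0.107% of all promoters had one, and 1.89% of all WT Oct4 summits had a KO Oct4 summit within 100 bp. With the WT list reduced to its 576 tallest summits, the length of the KO list, 0 histone genes had Oct4 in WT as well, so the loss at these genes cannot be told apart from the shorter list. All 55 genes with WT Oct4 had a Sox2 summit in KO, where 84.6% of the 1151 promoters with WT Oct4 did.

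Sox2 had a summit at 62 histone genes in KO (92.5%, interval 83.7 to 96.8), where 27.1% of all promoters did, and all 56 genes with WT Sox2 were among them. The 6 further genes were Hist1h2be, Hist1h1e, Hist2h2ab, Hist2h2ac, Hist2h2be and Hist4h4. They share few summits. Hist1h2be, through its outermost start, and Hist1h1e took the summit at chr13:23713978 (14 reads). The Hist2 genes took that at chr3:96024710 (14 reads), and Hist4h4 that at chr6:136752539 (27 reads). With the KO list reduced to the 5190 tallest summits, the length of the WT list, 11 histone genes had Sox2, fewer than the 56 of WT. The direction from WT to KO thus turned with list length. The 47 KO Sox2 summits were 11 to 55 reads high with a median of 19, where the list had 18. Of the 14130 genes with H3K4me3 in WT mESCs, 40.6% had a KO Sox2 summit, against 58 of 61 marked histone genes. In the tenth with the highest H3K4me3 mean count 46.8% had it, against 22 of 22 histone genes. It was also at 6 of 10 replication-independent histone genes and 5 of 13 genes for histone mRNA factors.

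Sox2 calls were kept by gene more than by position. Of the 40 WT Sox2 summits at histone genes, 14 (35.0%) had a KO summit within 100 bp, where 64.6% of all WT summits did. From the KO side 14 of 47 (29.8%) had a WT summit, where 16.2% of the list did. Oct4 and Sox2 in WT were likewise in the same genes but not always at the same base: 16 of 51 Oct4 summits (31.4%) had a WT Sox2 summit within 100 bp, where 24.2% of all Oct4 summits did, and 21 (41.2%) had a KO Sox2 summit, where 46.0% did. KO summits lay a median of 132 bp downstream of the nearest start.

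Nanog had few summits. In WT they lay at Hist1h2an, Hist1h2bp and Hist1h2al, 3 of 67 genes (4.48%, interval 1.53 to 12.4), where 0.608% of all promoters had one. In KO they lay at 6 genes (8.96%, interval 4.17 to 18.2), where 2.75% did. These genes took 2 summits in WT and 4 in KO. At Hist1h2an the WT Nanog summit of 11 reads lay 617 bp from the start, past the end of the gene, with the WT Oct4 summit of 27 reads at 594 bp. In KO the Sox2 summit there was 55 reads high, the tallest of any factor at the histone genes (94.0 percentile of its list), 514 bp from the start, and the KO Nanog summit was 31 reads high at 521 bp. The WT Sox2 summit of 23 reads lay elsewhere, 134 bp into the gene. The sequence around this KO Sox2 summit (chr13:21878523-21878623, - strand) is shown for contrast with the summit inside Hist1h2bl. It lies outside the annotated gene and holds CCAAT on each strand, in capitals.

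KO Sox2 summit near Hist1h2an: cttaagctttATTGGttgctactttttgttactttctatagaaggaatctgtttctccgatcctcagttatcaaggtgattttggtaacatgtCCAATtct

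At Hist1h2al, the lone H2A gene without H3K4me3, Sox2 and Nanog summits lay upstream, at -559 bp (21 reads) and -551 bp (20 reads) in WT and at -586 bp (31 reads) and -570 bp (15 reads) in KO. A further KO Sox2 summit of 11 reads lay 288 bp into the gene. The upstream site was thus found in both genotypes with both factors.

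The 10-kb windows of Uhrf1 lay within 5 kb of 3 histone genes in WT mESCs, Hist1h2bq, Hist1h2ao and Hist1h4m (4.48%, interval 1.53 to 12.4), where 6.10% of all promoters had one, a share inside the interval. All 3 fall in the single window chr13:21900001-21910000 over the first copy of the duplication, and 0 of the 61 genes outside the repeated set had a window. A second window in block C (chr13:23730001-23740000) lay 15630 bp from the nearest start, that of Hist1h1e. Over the first copy, then, Oct4 and Sox2 summits (37 and 14 reads at Hist1h2bq) and a Uhrf1 window were listed but no H3K4me3 domain.

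Genes that share a role with the histone genes were read the same way. All 13 genes for histone mRNA factors had H3K4me3 in all 8 lists, and 3 of them, Casp8ap2, Eri1 and Mllt1, were bivalent in WT mESCs. Casp8ap2 and Eri1 were active in KO, and Mllt1 stayed bivalent. The replication-independent histone genes (10 of 11 found by name) had H3K4me3 in every list except H1fx in KO mESCs. H2afy and H2afy2, for macroH2A, were bivalent in WT mESCs and active in KO, and H3f3a, for H3.3, was active in WT and bivalent in KO. Of the 4 other genes inside the cluster spans, Hfe, an iron-sensing gene in block C, had no H3K4me3 in mESCs of either genotype and had it in all EB lists, while Trim17, Gm17658 and H2afj had it throughout.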

How the data were processed

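The authors mapped reads to mm9 with Bowtie2 2.1.0, keeping 1 alignment per read, and deposited 1 list per library. Histone domains were called against input with RSEG, and the deposited columns are a mean read count per bin (a signal whose depth scaling is not stated) and a score. Factor summits were called with MACS, with the read count at the summit deposited as the signal. Uhrf1 was deposited as 10-kb windows without a score. The 8 inputs were not used here.

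Groups follow the labels' genotype, stage and target. Gene starts came from GENCODE vM1 on NCBIM37, the mm9 assembly, and none of 530 pairs of list and chromosome ran past a chromosome end. A gene was marked when at least 1 bp of a domain lay within 2 kb (H3K4me3) or 5 kb (H3K27me3, H3K9me3), or a summit within 2 kb. Repeated sequence was counted as 50-base words found more than once in the genome. Overlaps were computed with Python 3.11.15 and numpy 2.4.6, plots with matplotlib 3.10.9. The code was tested on simulated data, with 0 of 30000 calls wrong. Intervals are 95% Wilson intervals.

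The members, lists and named genes were chosen with earlier results of these data known. Named were the testis variants, genes not active in WT mESCs, genes whose H3K4me3 call differed, the 10 with the tallest summits, the first 10 with H3K9me3 or Uhrf1, genes of clusters under 4 members and comparison genes not active in WT mESCs. Other genes were named after their values were seen. Alternatives were other windows and joining distances, the median score or height, and coverage of 50%. Counts from the coding start, without repeated genes, with lists of equal length and, for factors, per group of starts, and the median score for genes marked at every stage, were added after the data were seen, as were the motif search at summits, the stem-loop search in other genes and the search for the duplication.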

Additional observations from a re-analysis of the deposited data

Results flagged for a closer look

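The difference from WT to KO in H3K4me3 at the histone gene clusters did not have the same sign at every stage, and with 1 library per group this was not tested. The share of all cluster spans covered by H3K4me3 was higher in KO than in WT by 11.5 percentage points in mESCs (57.8% and 69.3%). The difference, KO minus WT, was -6.40 points at week 1 (45.8% in WT and 39.4% in KO), -7.90 points at week 2 (56.4% and 48.5%) and -2.10 points at week 3 (51.2% and 49.1%). Over the whole genome, H3K4me3 cover in WT and KO was 8.14% and 7.10% in mESCs, 4.03% and 2.76% in week 1 EBs, 7.75% and 5.82% in week 2 EBs, and 6.10% and 6.24% in week 3 EBs. The lower KO cover of the clusters in the first 2 weeks thus went with a lower cover of the whole genome. The median percentile of the histone genes' H3K4me3 domains fell by 20.7 from WT to KO in mESCs, was 2.20 higher at week 1, fell by 1.90 at week 2 and was 3.20 higher at week 3. Genes in the same domain share its percentile, and in mESCs the domains numbered 13 in WT and 10 in KO. The fall of the mESC median is thus not the fall at each gene. The mESC lists have bins of 1300 bp and the EB lists bins of 350 or 400 bp, and the part of bin size in these differences was not tested.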

How the results depend on the processing

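No paired analysis was possible because each group held 1 library and the labels give no replicate numbers. Of 232 recomputed values, 181 stayed within 1.5 times the reported one and 51 did not. None of the H3K4me3 counts moved beyond it: requiring the median score gave 53 to 61 genes. With 58 to 63 of 67 genes marked, these counts could not rise by 1.5 times, so the rule could show only a large fall. Counts per group of starts are out of 52 groups, and those without repeated genes are out of 61 genes.

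H3K27me3 counts rest on domain edges and on domains below the median score. The score is a column apart from the mean count by which domains were ranked above, and a low score is not a low mean count. With domains of at least the median score the WT counts were 2 in mESCs, 2 at week 2 and 2 at week 3, and the KO counts 0 in mESCs, 0 at week 2 and 0 at week 3. With at least 50% of the window covered they were 3 in WT mESCs, 2 at WT week 1, 4 at WT week 3, 0 in KO mESCs and 1 at KO week 3. A 2-kb window gave 7 at WT week 3. A 10-kb window gave 9 at WT week 2, 2 in KO mESCs and 4 at each KO week. Genes marked throughout fell to 0 in each genotype at the median score, a setting added for this count after the data were seen. By mean count, the domain of Hist3h2ba ranked at the 52.8 percentile or higher in every list. H3K9me3 in WT went from 17 to 11 at the median score.

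Factor counts depended on height. At the median height they were 10 for WT Oct4, 14 for WT Sox2, 35 for KO Sox2, 0 for WT Nanog and 3 for KO Nanog. With the longer list reduced to the length of the shorter, they were 0 for WT Oct4, 11 for KO Sox2 and 2 for KO Nanog. A 5-kb window gave 14 for KO Nanog. Without repeated genes Uhrf1 was at 0.

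Cluster cover by H3K27me3, as percent of all spans, moved with the joining distance, which takes in the land between blocks. At 500 kb it was 30.6%, 22.3%, 35.4% and 39.5% in WT from mESC to week 3, and 5.65%, 18.2%, 8.60% and 7.33% in KO. At the median score it was 2.16% in WT mESCs, 2.16% at week 2 and 2.58% at week 3, and 0% in KO mESCs, 0.415% at week 2 and 0% at week 3. H3K9me3 cover was 27.5% in WT and 16.6% in KO as reported, and its direction turned at 500 kb, with 22.0% in WT and 31.7% in KO. At the median score it was 21.5% and 10.9%. Class changes at the median score numbered 8 in mESCs, 7 at week 1 and 3 at week 3. With 2 kb for both marks they numbered 1 at week 1 and 5 at week 3. The cause of these shifts was not tested beyond what each setting removes.

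How depth limits the lists was not tested.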
